A study of Mus musculus with 4 samples.

Results

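Th17 cells that arose from Foxp3+ precursors were compared with Th17 cells that arose from naive precursors, over all genes of a mouse expression array. The comparison took the arrays labelled exFoxp3Th17 and Th17, 2 of the 4 arrays of the study, and set the deposited signal of each gene on one against the other. Both populations were CD4 T cells of C57BL/6 mice, taken from spleen and lymph nodes at an age of 8 to 10 weeks, both were cultured under Th17 conditions, and both were sorted after culture as IL-17+ (a GFP reporter) and Foxp3- (an APC stain). They differed in the cell put into culture, which was a Foxp3+ CD4+ T cell for exFoxp3Th17 and a naive CD4+ T cell for Th17. The other 2 arrays, used here as references, were Th0 (naive CD4+ T cells cultured under Th0 conditions and sorted as IL-17- and Foxp3-) and Treg (Foxp3+ CD4+ T cells cultured with IL-2 and sorted as IL-17- and Foxp3+). The labels give no number of mice, no sex, no length of culture and no cytokine doses.

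Foxp3 is the lineage factor of regulatory T cells, which restrain other lymphocytes and use IL-2 through the high-affinity IL-2 receptor. Th17 cells are helper T cells that secrete IL-17 at epithelial surfaces and in inflamed joints, and TGF-beta with IL-6 drives naive cells into that fate. Regulatory T cells can lose Foxp3 under inflammatory cytokines, and the IL-17 producers that result are called exFoxp3 Th17 cells. The comparison asks how far the IL-17+ Foxp3- cells of these separate origins differ when the named culture condition and the gate are the same.

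With 1 array per population there is no spread between samples, so no test and no error can be given, and each ratio describes 2 arrays. Signals are on a linear scale. A gene was read from its brightest probe set, the small group of oligonucleotides that measures a transcript, and signals below a floor of 12.1, the median of all probe sets, were set to that floor before a ratio was taken. Calls of higher or lower needed a ratio of at least 2-fold with the larger signal above the floor, and a fold against a signal below the floor is a lower bound, written as "at least". Probe sets of a gene read the same RNA on the same arrays, so their agreement bears on the measurement and not on the spread between cultures. In RNA from a whole population, fewer cells of a kind and less RNA per cell cannot be told apart.

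The arrays were alike in scale, with 48.7% to 51.2% of probe sets above the floor and 3' to 5' control ratios between 0.907 and 1.06 for Gapdh and between 1.12 and 1.31 for Actb. The sorted identity was only partly visible: Foxp3 lay below the floor in exFoxp3Th17 (8.03) and Th17 (6.20) and Il17a lay below it on every array, while all 8 CD4 T cell markers with a probe set were above it on all 4 arrays and none of them differed by 2-fold. The arrays also differed in sex-linked RNA. The X-silencing RNA Xist, made in female cells, read 3766 in exFoxp3Th17, 7.73 in Th17, 7.41 in Th0 and 10.8 in Treg. The Y-linked genes Eif2s3y (4.66 against 876), Kdm5d (2.90 against 176) and Uty (0.734 against 162) lay below the floor in exFoxp3Th17. Precursor origin and this sex-linked difference cannot be told apart, and both run through every result that follows. The share of genes called was 15.9% on the autosomes, 14.5% of 331 genes on the X chromosome and 3 of 4 genes on the Y.

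Of 18193 genes, 10919 were above the floor on at least 1 of the arrays compared. Among them 880 (8.06%) were higher and 856 (7.84%) were lower in exFoxp3Th17, so 15.9% were called and 9183 lay within 2-fold. The median log2 ratio was 0.09, with the middle of the distribution between -0.33 and 0.47. A ratio of 4-fold was reached by 160 higher (1.47%) and 188 lower genes (1.72%), and one of 8-fold by 36 (0.33%) and 75 (0.687%). The larger differences therefore lay more often on the lower side, while at 2-fold the sides were nearly equal and their order turned with the scaling: 780 higher and 930 lower after quantile normalization, and 774 and 941 with equal medians.

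**Figure D1:**
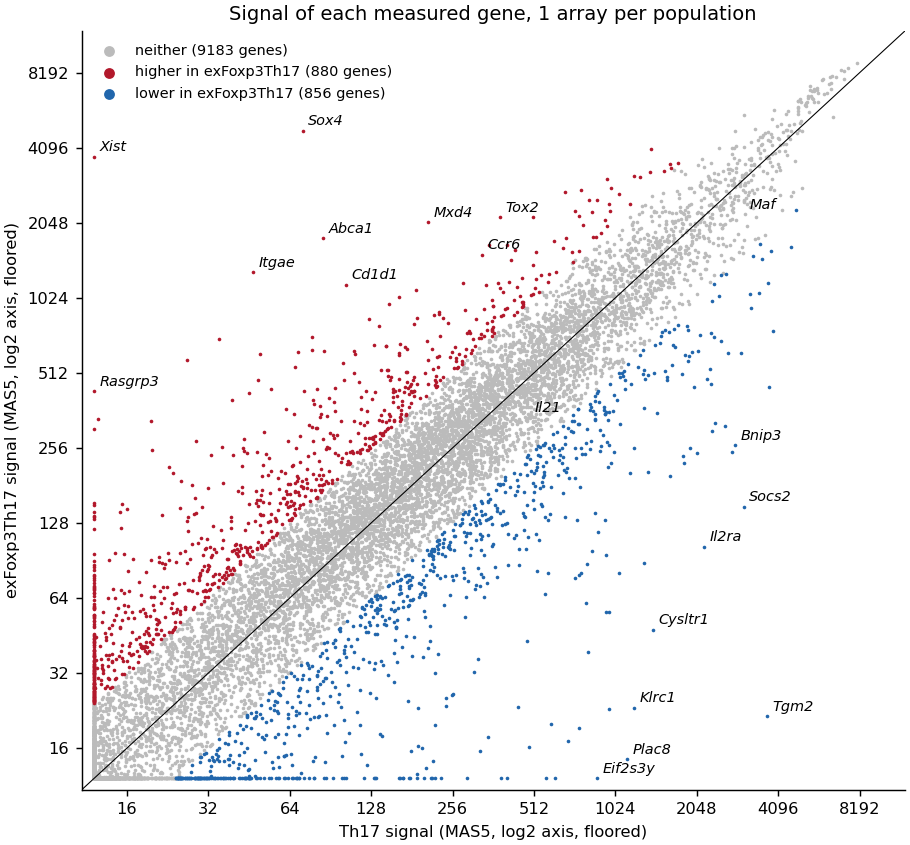
Signal of each measured gene in Th17 (horizontal axis) and exFoxp3Th17 (vertical axis), both on log2 axes in MAS5 signal units, with signals below the floor drawn at it and the diagonal marking equal signal. The 880 genes called higher lie above the diagonal and the 856 called lower lie below it, with Sox4 and Xist farthest above and Tgm2 farthest below among the named points.

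Where a called gene had another probe set above the floor, the probe sets mostly agreed. Of 442 such genes called higher, all other probe sets went the same way in 410 (92.8%), and in 164 (37.1%) all of them did so by 2-fold or more. The same counts were 373 (93.0%) and 192 (47.9%) of 401 genes called lower. A probe set that went the opposite way by 2-fold was present in 1 higher gene and 3 lower genes. Agreement grew with size: all other probe sets passed 2-fold in 35.9% of genes called at 2- to 4-fold, 62.1% at 4- to 8-fold and 79.2% at 8-fold or more. A call near 2-fold was thus often not met by every probe set of the gene.

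In 156 higher and 193 lower genes, at least 2 probe sets reached a signal of 48.4, which is 4 times the floor, and all of those differed by 2-fold or more. Sox4 led the autosomal ones upward. It encodes an HMG-box transcription factor that is active in T cell development and restrains Th2 differentiation. Its signal was 4788 in exFoxp3Th17, 71.6 in Th17, 206 in Th0 and 108 in Treg, a 66.9-fold difference between the Th17 arrays, and its 5 bright probe sets ranged up from at least 5.01-fold, where the Th17 signal was below the floor. The exFoxp3Th17 array thus stood above all 3 others, and the Th17 array was the lowest of the 4. Rasgrp3, an activator of Ras, had a signal of 433 in exFoxp3Th17 and was under the floor in Th17 and Th0, so that it was at least 35.7-fold higher. Itgae, the alpha E integrin chain (CD103) that binds E-cadherin on epithelium, had a signal of 1298 in exFoxp3Th17, 46.7 in Th17, 8.32 in Th0 and 384 in Treg, and its probe sets gave 27.1-fold and 27.8-fold. Unlike Sox4, it was also high in Treg.

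The membrane-remodelling GTPase gene Dnm3 (336 against 12.5), the sialyltransferase gene St8sia6 (575 against 26.6) and the protease gene Capn3 (698 against 35.1) followed, at 26.9-fold, 21.6-fold and 19.9-fold. These had different reference levels: Dnm3 was 14.1 in Th0 and 8.96 in Treg, whereas St8sia6 reached 391 and Capn3 172 in Th0. Atp6v0d2, part of the proton pump that acidifies lysosomes, was 16.8-fold higher (329 against 19.6). Cd1d1, which presents lipids to NKT cells, was 11.2-fold higher and had a signal of 1156 in exFoxp3Th17, 103 in Th17, 371 in Th0 and 298 in Treg. Mxd4, a MYC antagonist that pairs with MAX, was 9.89-fold higher with a signal of 2059 in exFoxp3Th17, 208 in Th17, 464 in Th0 and 225 in Treg. The transcription factor genes Klf12 (at least 12.7-fold) and Zfhx3 (at least 11.2-fold), the G protein regulator Rgs16 (at least 11.3-fold), the phosphodiesterase Pde5a (at least 10.0-fold) and the growth factor Vegfc (9.96-fold, 152 against 15.3) complete the 15 with the largest ratios.

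In the other direction Tgm2, which encodes a protein-crosslinking transglutaminase, had a signal of 21.5 in exFoxp3Th17, 3704 in Th17, 7.41 in Th0 and 236 in Treg, and its 5 bright probe sets gave between 15.9-fold and 247-fold. Klrc1, the NKG2A chain of an inhibitory receptor of NK and T cells, was 51.6-fold lower (23.2 against 1200.0). Both genes lay below the floor in Th0 and had their highest signal of the 4 arrays in Th17. Enah, an actin filament regulator, had a signal of 17.0 in exFoxp3Th17, 682 in Th17, 31.7 in Th0 and 532 in Treg. The lipoprotein receptor gene Vldlr (30.4-fold), the costimulatory ligand gene Cd86 (29.4-fold, 20.0 against 589) and the leukotriene receptor gene Cysltr1 (29.4-fold, 47.8 against 1406) were also lower on every bright probe set. Cd86 and the class II gene H2-Ab1 (19.7 against 219.8) are also made by antigen-presenting cells. Of the 9 dendritic cell markers, 3 were above the floor in Th17 and 2 in exFoxp3Th17, with summed signals of 287 and 85.5. Most of that difference was H2-Ab1, while Cd74 went the other way (36.4 against 23.1). Itgax, Flt3, Xcr1, Zbtb46, Siglech and H2-Aa lay below the floor in both. The part of antigen-presenting cells in the Cd86 difference was not tested.

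Il2ra, which gives the IL-2 receptor its high affinity, was 21.2-fold lower and had a signal of 103 in exFoxp3Th17, 2178 in Th17, 646 in Th0 and 2878 in Treg, and Socs2, a STAT5-induced feedback gene, was 20.5-fold lower with 149 in exFoxp3Th17, 3052 in Th17, 1830.2 in Th0 and 3883 in Treg. In these cases exFoxp3Th17 lay below all 3 other arrays. The costimulatory receptor Tnfrsf9, known as 4-1BB, was at least 13.9-fold lower, with a signal of 6.69 in exFoxp3Th17, 168 in Th17, 27.1 in Th0 and 340.3 in Treg. Plcxd1 (at least 18.2-fold), the matricellular protein gene Ccn3 (at least 17.8-fold), the GPI-anchor enzyme gene Pigz (at least 16.6-fold), Selenbp1 (15-fold), the mitochondrial adenylate kinase gene Ak4 (12.3-fold) and Y-linked Uty complete the 15 lower genes.

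**Figure D2:**
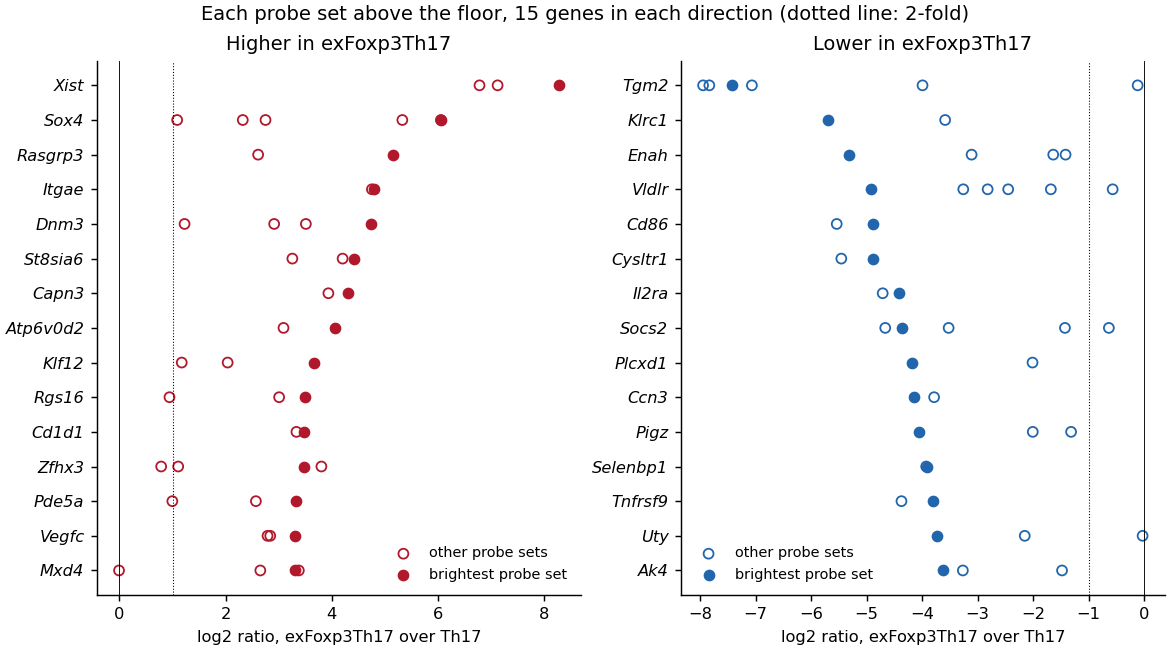
Log2 ratio of exFoxp3Th17 over Th17 for every probe set above the floor of the 15 genes with the largest ratios in each direction, with filled points for the brightest probe set, open points for the others and a dotted line at 2-fold. Itgae, Cd1d1, Il2ra and Cysltr1 have probe sets close to each other, while Mxd4, Tgm2 and Uty each have a dim probe set near 0.

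The Th17 program itself was split. Of 15 measured transcription factor genes of the Th17 fate, 2 were higher, 4 lower and 9 neither, with a median log2 ratio of -0.21. Over all measured genes 8.06% were higher and 7.84% lower, and the counts of this and each later list stand beside those shares. Maf, which drives Il21 and Il10, was close, with a signal of 2219 in exFoxp3Th17, 3072 in Th17, 17.2 in Th0 and 1351 in Treg. Rora, a nuclear receptor gene, was also within 2-fold, at 918 in exFoxp3Th17, 682 in Th17, 66.3 in Th0 and 107 in Treg. For Stat3 (675 against 614), which carries the IL-6 signal, Hif1a (2639 against 4162) and Batf (657 against 421), an AP-1 partner of Irf4, the arrays differed by less than 2-fold as well. Maf and Rora were far lower in Th0 than on either Th17 array. Irf4, a factor that scales with antigen receptor signal, was the exception by size: 13.1-fold lower, with a signal of 80.3 in exFoxp3Th17, 1055 in Th17, 109.5 in Th0 and 373 in Treg. Fosl2 (2.94-fold lower), Nfkbiz (2.95-fold lower) and the aryl hydrocarbon receptor gene Ahr (2.05-fold lower) were the other lower members, and Id3 (2.91-fold, 183 against 62.8) and the Ikaros factor Ikzf3 (2.57-fold) the higher ones. Among these, no other probe set of Ahr, Nfkbiz or Ikzf3 passed 2-fold, and with probe sets averaged per gene 1 gene was higher and 2 were lower.

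Of 13 measured effector and surface genes of Th17 cells, 5 were higher, 4 lower and 4 neither (median 0.06). Ccr6, the receptor that guides Th17 cells along CCL20, had a signal of 1522 in exFoxp3Th17, 329 in Th17, 19.6 in Th0 and 54.5 in Treg and was 4.63-fold higher, and its ligand gene Ccl20 was 2.52-fold higher (427 against 169). Il17re, an IL-17 receptor chain, was 6.00-fold higher with 433 in exFoxp3Th17, 72.2 in Th17, 17.1 in Th0 and 12.5 in Treg. The ion channel genes Tmem176a (4.08-fold) and Tmem176b (3.64-fold), which neighbour each other and share high expression in IL-17 producers, had signals of 2710.0 and 2781 against 664 and 763. In each of these 5 genes the signal was lowest in Th0, higher in Th17 and highest in exFoxp3Th17 among those 3 arrays. Il21 (339 against 491) and the IL-1 receptor Il1r1 (107 against 103) were within 2-fold, and neither reached the floor in Th0 or Treg; another probe set of Il21 was lower by 2-fold or more.

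The lower members were secreted or inflammatory: Il10 (at least 33.7-fold), Il9 (21.0-fold), the leukotriene B4 receptor Ltb4r1 (19.1-fold) and Csf2 (at least 5.05-fold), the gene of GM-CSF. Il9 had a signal of 38.8 in exFoxp3Th17, 813 in Th17, 9.70 in Th0 and 15.8 in Treg. Ltb4r1 had 23.4 in exFoxp3Th17, 447 in Th17, 1.26 in Th0 and 50.1 in Treg. For all 4 genes the Th17 array was the highest of the 4 arrays. None of them had another probe set above the floor.

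Over 15 measured effector cytokine genes none was higher, 9 were lower and 6 were neither, and the median log2 ratio was -2.34 against 0.09 for all genes. Besides Il10 and Il9 the lower genes were Il24 (at least 46.9-fold, 6.60 against 568), the IL-6 family member Lif (20.7-fold), Tnf (15.3-fold, 13.3 against 204), Lta (8.23-fold, 198 against 1626), Tgfb3 (at least 6.23-fold), Csf2 and Il4 (at least 3.18-fold). The uncalled members were Il21, Il2, Tgfb1 and Csf1, which lay within 2-fold (another probe set of Csf1 was higher by 2-fold or more), Ltb (4371 against 3817), and Il16, which was close to 2-fold with a log2 ratio of 0.99 (1445 against 727). In 10 of the 15 the Th17 array was the highest of the 4, against 19.8% of all measured genes. The Th0 array lay nearer to exFoxp3Th17 than to Th17 in Lta (258) and Tnf (30.1). The median depended on the floor, with -2.86 at a floor of 6.05 and -1.49 at a floor of 24.2.

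**Figure D3:**
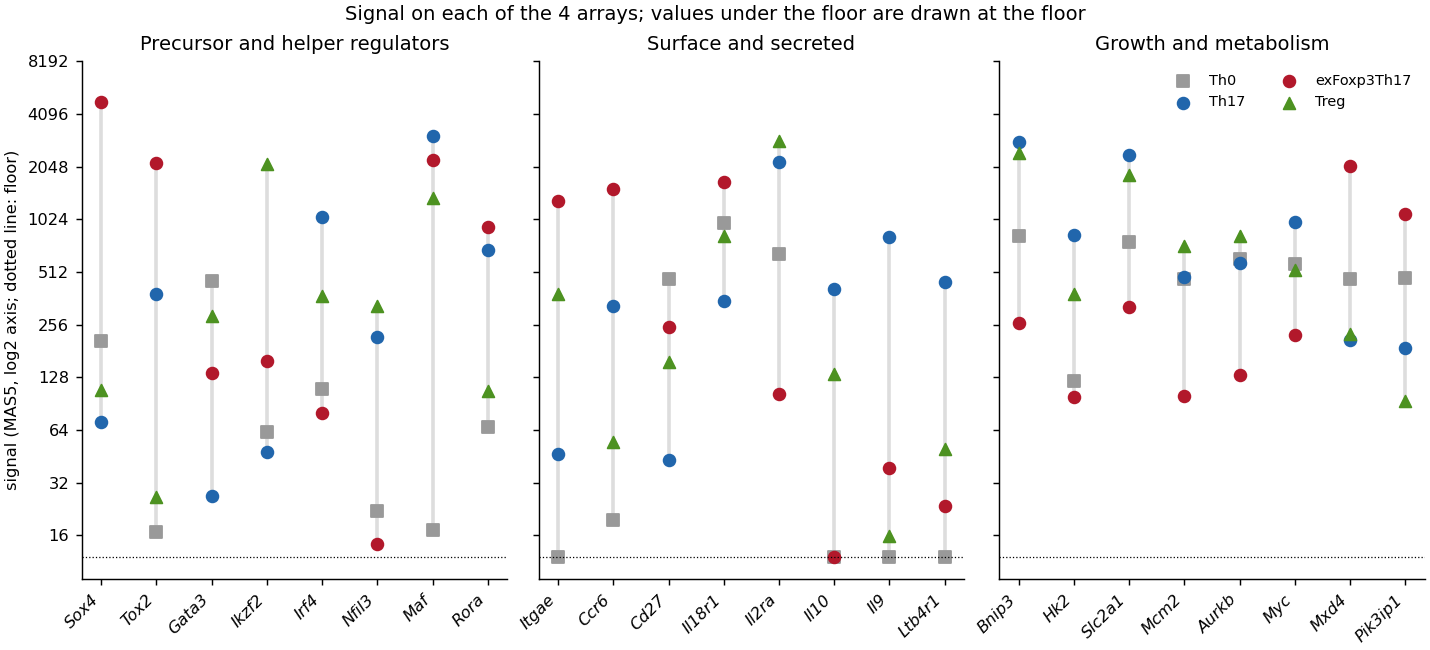
Signal of 24 genes on each of the 4 arrays, on a log2 axis in MAS5 signal units, with the dotted line at the floor of 12.1 and grey bars joining the lowest and highest array. The exFoxp3Th17 points are highest for Sox4, Tox2, Itgae and Ccr6 and lowest for Il2ra, Bnip3, Mcm2, Aurkb and Myc, while Maf and Rora have both Th17 arrays above Treg and Th0.

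Regulatory T cell genes were also split, although exFoxp3Th17 descended from Foxp3+ cells. Over the 22 genes measured the calls were 6 higher and 9 lower, with 7 in neither class (median -0.39). The higher ones were Itgae, the zinc finger gene Plagl1 (6.41-fold), the enkephalin precursor Penk (at least 4.47-fold), the Ikaros factor Ikzf2 (Helios, 3.28-fold), the ectonucleotidase Nt5e (2.08-fold) and the semaphorin receptor Nrp1 (2.02-fold). Ikzf2, a marker of stable regulatory T cells, read 158 in exFoxp3Th17, 48.2 in Th17, 62.2 in Th0 and 2115 in Treg, so exFoxp3Th17 was above both naive-derived arrays and far below Treg. Penk, with 54.1 in exFoxp3Th17, 0.841 in Th17, 5.66 in Th0 and 73.9 in Treg, was above the floor only on the arrays of Foxp3+ origin. Nt5e and Nrp1 were near the call threshold, although their other probe sets above the floor all passed 2-fold the same way. The other probe set of Plagl1 above the floor went the same way but did not pass 2-fold.

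The lower regulatory genes had a different profile: Il10, Il2ra, Socs2, Tnfrsf9, Tnfrsf18 (3.20-fold), Tnfrsf4 (3.02-fold), Izumo1r (4.78-fold), Swap70 and Gpr83. Tnfrsf18 (GITR) had a signal of 597 in exFoxp3Th17, 1911 in Th17, 1194 in Th0 and 2979.8 in Treg and Tnfrsf4 (OX40) had 549 in exFoxp3Th17, 1658 in Th17, 544 in Th0 and 2319.9 in Treg, and both receptors are induced by activation in conventional cells too. Ctla4, the inhibitory receptor of activated and regulatory T cells, was close on these arrays (1914 against 1943). Of the 9, exFoxp3Th17 was the lowest array in Il2ra, Socs2, Tnfrsf9, Izumo1r, Tnfrsf18 and Gpr83.

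Of 12 measured genes of other helper fates, regulators and receptors, 7 were higher, 2 lower and 3 neither (median 1.09). Apart from Gata3 the higher ones on this list were all follicular helper genes. Genes of follicular helper cells on other lists did not all follow. Il21 (339 against 491), Icos (1262 against 2359) and Maf (2219 against 3072) were within 2-fold, and Slamf1 (5.22-fold) and Il21r (2.64-fold) were lower. Stat4 (366 against 318), Stat6 (256 against 276) and the follicular factor Ascl2 (1.95 against 13.7, near the floor) were neither. Gata3, the Th2 factor that regulatory T cells also use, was 5.0-fold higher with 135 in exFoxp3Th17, 27.0 in Th17, 453 in Th0 and 288 in Treg. The higher follicular helper genes were the B cell zone receptor Cxcr5 (at least 11-fold, 133 against 7.84), Tox2 (5.61-fold), Tox (5.63-fold), the receptor Pdcd1 (3.80-fold), Pou2af1 (2.22-fold) and Bcl6 (2.04-fold), the factor that directs that fate. Tox2 had a signal of 2150.0 in exFoxp3Th17, 383 in Th17, 16.8 in Th0 and 26.6 in Treg, which puts both Th17 arrays above Th0 and Treg, whereas Gata3 and Tox (161 in exFoxp3Th17, 28.7 in Th17, 131 in Th0 and 208 in Treg) had their lowest signal in Th17. Nfil3, a basic leucine zipper repressor, was 15.2-fold lower with 14.3 in exFoxp3Th17, 217 in Th17, 22.1 in Th0 and 329 in Treg, and Runx3 was 2.22-fold lower. Tbx21 and Eomes, the Th1 and cytotoxic factors, lay below the floor on both Th17 arrays. Of 11 measured SOX, TCF and TOX factor genes only Sox4, Tox and Tox2 were called, all higher.

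Chemokine receptor genes were called higher in 6 of 15 (40%) and lower in 3 (20%), beside 8.06% and 7.84% of all measured genes (median 0.67). Besides Ccr6 and Cxcr5 the higher ones were Ccr8 (at least 4.09-fold), Cx3cr1 (at least 4.26-fold), Cxcr3 (3.67-fold) and the lymph node exit receptor S1pr1 (2.02-fold). Ltb4r1, Ccr2 (at least 5.56-fold, 10.2 against 67.2) and the oxysterol receptor Gpr183 (3.33-fold) were lower. Gpr15, a colon-homing receptor, was high on both Th17 arrays (2163 against 1161) against 6.93 in Th0. None of the 6 higher receptor genes had another probe set above the floor.

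Receptors for inflammatory cytokines were called in both directions. Of 18 genes of the IL-1, IL-17 and IL-12 families 6 were higher (33.3%) and 2 lower (11.1%), with a median of 0.31. These counts were 3 and 1 with probe sets averaged per gene, and 6 and 4 at a floor of 6.05. Il18r1, the IL-18 binding chain, had a signal of 1670.5 in exFoxp3Th17, 348 in Th17, 969 in Th0 and 819.6 in Treg and was 4.80-fold higher, and its partner Il18rap was 2.67-fold higher. Il17rd (at least 3.25-fold), the shared IL-6 receptor chain Il6st (2.50-fold) and Il1rap (2.25-fold) were higher too, and Il12rb1 (3.67-fold) and Il10ra (at least 3.27-fold) were lower. Of the common gamma chain group 3 of 6 were lower: Il2ra, the IL-4 receptor Il4ra (4.90-fold, 109 against 534) and Il21r (2.64-fold). Il7r, the receptor of a survival cytokine, was within 2-fold (3049 against 2378).

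Markers of gamma delta T cells, which are natural IL-17 producers with high Sox4 and Ccr6, were read beside these results. Of 12 markers 6 had a probe set, and 3 were above the floor in exFoxp3Th17, 2 in Th17, 3 in Th0 and 2 in Treg, with summed signals of 204, 154, 153 and 57.8. The scavenger receptor gene 5830411N06Rik (Scart2) was called higher (43.5 against 13.4), Trgv4 was not (122 against 106), and Blk, Cd163l1 and Zbtb16 lay below the floor on both Th17 arrays. Their part in the differences in Sox4, Ccr6 and Itgae was not tested.

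**Figure D4:**
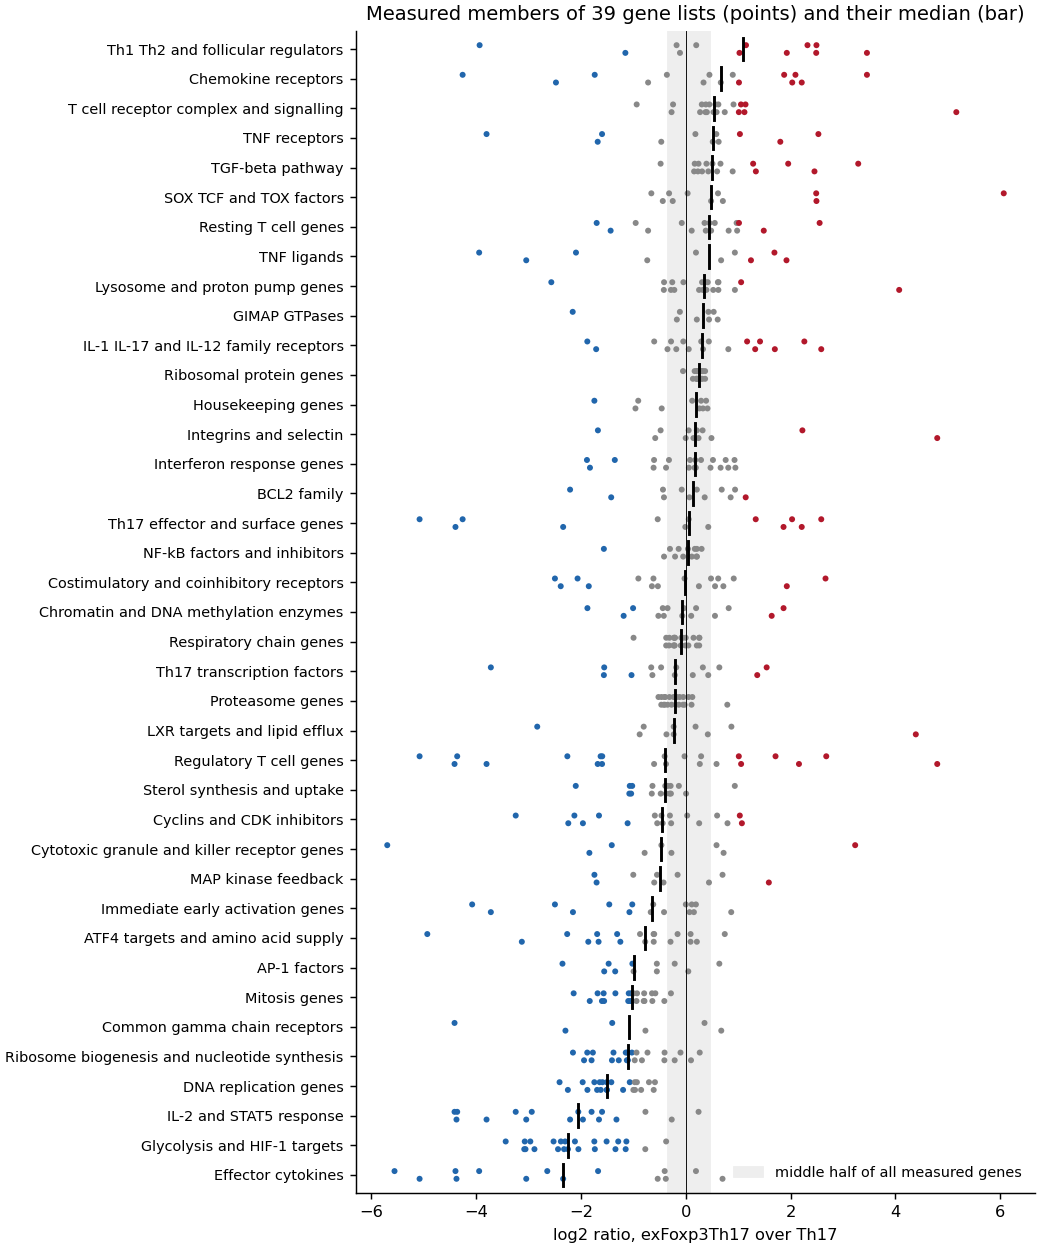
Log2 ratio of exFoxp3Th17 over Th17 for the measured members of 39 of the 42 gene lists, without the chemokine list and the lists of Y-linked and X-inactivation genes (points, red for higher, blue for lower, grey for neither) with the list median as a bar and the middle of all measured genes as a grey band. Medians of the lists drawn run from 1.09 for genes of other helper fates to -2.34 for effector cytokines, and the glycolysis, IL-2 and STAT5, replication and mitosis lists lie on the lower side.

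TGF-beta supports both the regulatory and the Th17 fate, acting through its receptors and SMAD proteins. Of 17 genes of that pathway 5 were higher, none lower and 12 neither (median 0.51). Of the 17 log2 ratios 16 were above 0, against 6138 of 10919 for all measured genes. The count of higher pathway genes was 3 with probe sets averaged per gene. Of 3 receptor genes, Tgfbr1 (3.87-fold, 883 against 228) and Tgfbr2 (2.53-fold) were higher and the coreceptor gene Tgfbr3 was within 2-fold (384 against 341). Tgfbr2 had a signal of 2666 in exFoxp3Th17, 1055 in Th17, 1409 in Th0 and 670.1 in Treg. Among inhibitors, Ldlrad4, which holds back SMAD phosphorylation, was 5.48-fold higher (442 against 80.6) and the repressor Tgif1 2.44-fold, while Smad7 (361 against 194), Ski and Skil stayed within 2-fold. The matrix gene Tgfbi, a TGF-beta target, was 9.78-fold higher with 479 in exFoxp3Th17, 49.0 in Th17, 4.69 in Th0 and 4.13 in Treg, and the 3 further probe sets that lay above the floor each passed 2-fold. The SMAD genes themselves were close: Smad2 243 against 207, Smad3 323 against 289 and Smad4 1089 against 877. In 12 of 17 genes exFoxp3Th17 was the highest of the 4 arrays, against 35.4% of all measured genes. In none was it the lowest, against 25.8% of all.

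Genes of the T cell receptor complex and its signalling were also shifted upward, with 5 of 20 higher and none lower (median 0.55). Log2 ratios were above 0 in 17 of the 20, against 6138 of 10919 for all measured genes. With equal medians 3 genes of the list were higher. The called ones were Rasgrp3, the phosphatase Ptpn22 (2.20-fold), the brakes Ubash3a (2.17-fold) and Cblb (2.08-fold), and the adaptor Trat1 (2.02-fold). Trat1 had a signal of 48.2 in exFoxp3Th17, 23.9 in Th17, 994 in Th0 and 876 in Treg, so it was low on both Th17 arrays. The CD3 chains Cd3d (4536 against 3492), Cd3g (3207 against 2458) and Cd3e (311 against 375) and the kinase Zap70 (386 against 456) were within 2-fold.

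Genes that T cells switch on after stimulation went the other way. Of 16 immediate early and activation genes none was higher and 7 were lower (median -0.64): the survival gene Ier3 (16.8-fold, 56.1 against 944), Irf4, the activation marker Cd69 (5.63-fold, 131 against 738), Myc (4.44-fold), Egr2 (2.75-fold), Ier5 and Nr4a1. Egr1 (109 against 103), Nr4a3 (27.8 against 24.3) and Tnfaip3 (373 against 344) were within 2-fold. Among 11 AP-1 factor genes 5 were lower and none higher, with Batf3 (5.10-fold) and Jun (2.54-fold, 224 against 569) among them, and Jund was even (3147 against 3041). In 7 of the 11 the Th17 array was the highest of the 4, against 19.8% of all measured genes. NF-kB factors and their inhibitors, by contrast, had 12 of 13 within 2-fold with a median of 0.04, including Nfkbia (3975 against 4109) and Rela (408 against 362), and Nfkbiz lower.

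Genes on a list of the response to IL-2, which runs through STAT5, were mostly lower: 14 of 17 measured genes were lower, none higher and 3 neither (median -2.05). STAT5 activity was not measured, and members such as Il2ra, Socs2, Lif and Lta are counted in other lists too. By role, the receptor chain Il2ra and the feedback genes Socs2, Cish (4.13-fold, 353 against 1460.2) and Socs1 (2.50-fold) were lower, and Socs3, the feedback gene of STAT3, was not (2514 against 2121). Also within 2-fold were the receptor chain Il2rb (220 against 375) and the kinase Pim2 (779 against 937). The kinase Pim1 (7.65-fold), the survival gene Bcl2 (4.61-fold) and the cyclins Ccnd2 (3.15-fold) and Ccnd3 (3.89-fold) were lower, although another probe set of Ccnd3 went the opposite way by 2-fold. Pim1 had a signal of 238 in exFoxp3Th17, 1821 in Th17, 1792 in Th0 and 2458 in Treg and Bcl2 had 483 in exFoxp3Th17, 2227 in Th17, 1414 in Th0 and 1398 in Treg. In 12 of the 17 genes exFoxp3Th17 was the lowest of the 4 arrays, against 25.8% of all measured genes. The Th0 array, which also came from naive cells, thus lay above it in those genes. Cdkn1a, the p21 inhibitor of cyclin kinases, was 9.46-fold lower with 76.9 in exFoxp3Th17, 727 in Th17, 74.9 in Th0 and 434 in Treg, and here Th0 and exFoxp3Th17 were level.

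Among costimulatory and coinhibitory receptors 2 of 17 were higher (11.8%) and 4 lower (23.5%), beside 8.06% and 7.84% of all measured genes. Cd96, a receptor for nectins, was 6.34-fold higher with 1029 in exFoxp3Th17, 162 in Th17, 432 in Th0 and 167 in Treg, and Slamf1 (5.22-fold, 86.7 against 452), Cd69, Pdcd1lg2 (4.18-fold) and Slamf7 were lower. Cd28 (2830.0 against 1920.3) and Icos (1262 against 2359) were within 2-fold, although both other probe sets of Icos were lower by 2-fold or more. In the TNF family Cd27, a receptor of resting and memory cells, was 5.78-fold higher with 249.6 in exFoxp3Th17, 43.2 in Th17, 465 in Th0 and 156 in Treg, the ligand gene Tnfsf13b (BAFF) was 3.79-fold higher and Tnfsf9, the ligand of 4-1BB, was 4.26-fold lower. On the list for resting T cells, calls fell on 3 members upward (17.6%) and 2 downward (11.8%) out of 17, around a median of 0.45. Each share was above that of all measured genes, 8.06% and 7.84%. Pik3ip1, an inhibitor of PI3 kinase that activated cells switch off, was 5.87-fold higher with 1104 in exFoxp3Th17, 188 in Th17, 471 in Th0 and 93.8 in Treg, while Klf2 (141 against 273) was within 2-fold and Klf3 (2.70-fold) and Igfbp4 (3.24-fold) were lower.

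Glycolysis and other targets of HIF-1, the oxygen-sensing factor that activated T cells use to feed on glucose, were uniform in direction. All 23 genes had log2 ratios below 0, and 21 were lower, none higher and 2 neither (median -2.25). The uptake and first steps were lower: the glucose transporters Slc2a1 (7.38-fold) and Slc2a3 (7.79-fold) and the hexokinases Hk2 (8.44-fold) and Hk1 (2.21-fold). Slc2a1 had a signal of 323 in exFoxp3Th17, 2387 in Th17, 759 in Th0 and 1831 in Treg, and Hk2 had 98.9 in exFoxp3Th17, 835 in Th17, 122 in Th0 and 383 in Treg. Further down the pathway Pfkp (3.35-fold), Aldoa (2.44-fold), Tpi1 (5.21-fold, 750.2 against 3906), Pgam1 (4.99-fold) and Pkm (3.32-fold) were lower. Ldha (2726 against 4649.8) and Pgk1 (3631 against 4702) were the 2 within 2-fold.

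Hypoxia targets outside glycolysis were lower by as much. The mitophagy gene Bnip3 was 10.8-fold lower with 263 in exFoxp3Th17, 2837 in Th17, 823 in Th0 and 2458 in Treg. The oxidoreductase Ero1a (8.39-fold), Ndrg1 (8.31-fold), Vegfa (5.41-fold), the prolyl hydroxylases P4ha1 (4.74-fold) and Egln3 (4.32-fold) and Pdk1 (2.19-fold), which turns pyruvate away from mitochondria, were lower too. In 22 of the 23 genes exFoxp3Th17 was the lowest of the 4 arrays and in 17 Th17 was the highest. Over all measured genes these shares were 25.8% and 19.8%. Of 14 lower genes with another probe set above the floor, all others went the same way in 14 and at least 1 passed 2-fold in 13. Hif1a itself was 2639 in exFoxp3Th17 and 4162 in Th17 on its brightest probe set, within 2-fold, but its 3 dimmer measured probe sets were all lower, 2 of them by 2-fold or more.

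The promoters of the glycolysis and HIF-1 target list were read for the core of the hypoxia response element, ACGTG, on both strands. The windows were the 250 bases before each gene's start (RefSeq, GRCm38.p6). Of 30 windows of the 21 genes in the table, 17 (56.7%) held it, against 16.6% of 32851 windows of all genes. The letters also lie inside the E-box CACGTG, to which MYC family proteins bind, so a match does not tell these motifs apart. The mitosis list held it in 35.0% of windows and the ribosomal protein list, in which no gene was called, in 30%. The last 150 bases before the start are given for Bnip3, Hk2 and Ero1a, which have the 3 largest ratios of the group and a match in that stretch, with the core or its reverse complement in capitals, which in Bnip3 is a whole E-box.
Bnip3, chr7:138909507-138909656, minus strand: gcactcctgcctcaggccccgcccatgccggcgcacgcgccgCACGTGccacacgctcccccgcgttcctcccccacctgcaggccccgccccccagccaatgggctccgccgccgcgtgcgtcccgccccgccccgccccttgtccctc
Hk2, chr6:82774455-82774604, minus strand: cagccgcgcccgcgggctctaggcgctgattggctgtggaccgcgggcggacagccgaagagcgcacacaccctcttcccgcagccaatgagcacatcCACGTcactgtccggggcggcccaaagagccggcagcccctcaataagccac
Ero1a, chr14:45318573-45318722, minus strand: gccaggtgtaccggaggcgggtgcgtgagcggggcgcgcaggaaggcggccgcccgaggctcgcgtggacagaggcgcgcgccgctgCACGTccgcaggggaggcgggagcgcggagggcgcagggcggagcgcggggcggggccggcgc
These matches describe the letters only, since no factor binding was measured. The list was drawn up from known HIF-1 targets, so a high share follows in part from that choice and not from these arrays. The GC-rich letters GGGCGG were also frequent, in 21 of 30 windows (70%) of this list, against 32.7% of all. They were in 15 of 21 replication windows (71.4%) as well.

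Genes of cell division lay on the lower side throughout. Of 23 DNA replication genes 15 were lower, none higher and 8 neither (median -1.50), and of 23 mitosis genes 12 were lower, none higher and 11 neither (median -1.02). In both lists every log2 ratio was below 0. In all 23 members of each exFoxp3Th17 was the lowest of the 4 arrays, against 25.8% of all measured genes. With probe sets averaged per gene in place of the brightest, 6 mitosis genes were called lower. The origin-licensing genes Cdc6 (5.30-fold) and Mcm2 (4.75-fold) and the fork gene Cdc45 (3.90-fold) had the largest ratios in replication. Mcm2 had a signal of 101 in exFoxp3Th17, 478 in Th17, 468 in Th0 and 718 in Treg. The ribonucleotide reductase subunit Rrm2 (3.12-fold, 738 against 2300.3) and the methylation reader Uhrf1 (3.67-fold) were lower, and the sliding clamp Pcna (1765 against 3364) and Mcm7 (1327 against 1992) were within 2-fold.

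In mitosis the chromosome kinases led: Aurkb (4.40-fold), the checkpoint kinase Bub1 (3.55-fold), Cdk1 (3.20-fold) and topoisomerase Top2a (3.02-fold). Aurkb had a signal of 131 in exFoxp3Th17, 577 in Th17, 604 in Th0 and 824 in Treg. Ccnb2 (559 against 679.7), Cdc20 (983 against 1528) and the proliferation marker Mki67 (964 against 1915) were among the 11 mitosis genes within 2-fold. Of the cell-cycle controllers, E2f1 (at least 4.72-fold) and cyclin E2, Ccne2 (4.35-fold), were lower, and the pocket protein Rbl2 (2.10-fold) and Ccng2 (2.04-fold, 3567 against 1745), a cyclin of resting cells, were higher. Cdkn1b, the p27 inhibitor, was 851 against 489.6, within 2-fold.

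E2F factors switch on replication genes as cells leave rest, and their site was read in the same windows with the letters TTTGGCGC, TTTCCCGC or TTTCGCGC on both strands. It was present in 7 of 21 replication windows (33.3%), against 1.53% of all windows, and in 4 of 19 windows of the ribosome biogenesis list (21.1%) and 1 of 20 of the mitosis list. Replication genes are known E2F targets, so their share follows in part from the choice of the list and not from these arrays. The CCAAT box was present in 16 of 21 replication windows (76.2%) and 17 of 20 mitosis windows (85.0%), against 33.8% of all, but also in 14 of 17 windows of the sterol list (82.4%), and the cell-cycle element TTTGAA in 7 of 20 mitosis windows (35.0%), against 16%. The last 150 bases before the start are given for 3 lower replication genes. These had the largest ratios among genes with only 1 window and a match in that stretch. The E2F letters are in capitals as written or as their reverse complement.
Cdc6, chr11:98908001-98908150, plus strand: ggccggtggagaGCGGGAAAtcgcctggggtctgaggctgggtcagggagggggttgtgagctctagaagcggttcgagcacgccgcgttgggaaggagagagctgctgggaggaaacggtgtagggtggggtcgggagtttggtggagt
Mcm5, chr8:75109359-75109508, plus strand: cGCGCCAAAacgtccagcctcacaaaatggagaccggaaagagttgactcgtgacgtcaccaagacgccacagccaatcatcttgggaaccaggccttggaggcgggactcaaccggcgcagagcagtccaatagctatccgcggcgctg
Rfc3, chr5:151651209-151651358, minus strand: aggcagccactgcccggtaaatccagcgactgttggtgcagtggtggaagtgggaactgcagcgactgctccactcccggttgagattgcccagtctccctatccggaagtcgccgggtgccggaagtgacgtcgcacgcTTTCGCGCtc
Mcm5, a subunit of the replicative helicase, was 3.07-fold lower, and Rfc3, a clamp loader subunit, was 2.09-fold lower. Cdc6, with the largest ratio of the replication list, had a signal of 53.6 in exFoxp3Th17, 284 in Th17, 234 in Th0 and 454 in Treg.

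Biosynthesis followed the same direction in part. Of 23 genes of ribosome biogenesis and nucleotide synthesis 13 were lower and none higher (median -1.10), led by Myc with a signal of 222 in exFoxp3Th17, 986 in Th17, 567 in Th0 and 527 in Treg, the RNA polymerase I subunit Polr1b (3.83-fold), the nucleolar genes Nop56 (3.67-fold) and Nolc1 (3.47-fold) and the spermidine synthase Srm (3.41-fold). Npm1 (5697 against 5312) and Odc1 (3335 against 2771) were within 2-fold. Mxd4, the MYC antagonist named above, had its highest signal where Myc had its lowest. Of 19 ATF4 targets and amino acid supply genes 8 were lower and none higher (median -0.77), among them the leucine transporter Slc7a5 (8.72-fold, 36.5 against 318), Trib3 (4.79-fold), Psat1 (3.62-fold) and Asns (2.47-fold). Of 17 sterol synthesis and uptake genes 5 were lower, or 3 with probe sets averaged per gene, and none higher (median -0.39), with Lss at 4.28-fold. The lipid exporter Abca1, a target of the oxysterol receptor LXR, went far the other way, 20.9-fold higher with a signal of 1777 in exFoxp3Th17, 84.9 in Th17, 54.7 in Th0 and 55.3 in Treg, while Abcg1, another such target, was within 2-fold (513 against 383).

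Some groups held no call and others held some, to be read beside 8.06% higher and 7.84% lower over all measured genes. None of 19 ribosomal protein genes (median 0.25), 23 respiratory chain genes (median -0.09) or 22 proteasome genes (median -0.21) was called, and 17 of 20 interferon response genes were neither (median 0.18). Among interferon genes Isg20 (3.69-fold), the GTPase gene Igtp (3.54-fold) and Gbp2 (2.55-fold) were lower. Tfrc, the transferrin receptor, was the 1 housekeeping gene of 10 that was called (3.34-fold lower). Of 12 measured genes of the integrin and selectin list 9 were within 2-fold. Itgae and Itga4 (4.68-fold) were higher (16.7%) and Itgb1 (3.19-fold) was lower (8.33%). Of 9 measured cytotoxic granule and killer receptor genes 1 was higher (11.1%) and 3 were lower (33.3%). Klrb1f was 9.39-fold higher (426 against 45.4), and Klrc1, Klrd1 (3.57-fold) and Klrk1 (at least 2.66-fold) were lower. Of 20 lysosome genes 17 were neither, with Atp6v0d2 standing alone among the proton pump subunits. Of 15 measured chromatin and DNA methylation genes 2 were higher (13.3%) and 3 lower (20%). The DNA methylation genes divided: Dnmt1, which copies methylation at replication, was 2.27-fold lower, and Dnmt3a (3.12-fold, 244 against 78.5) and Tet1 (3.64-fold, 52.4 against 14.4) were higher.

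A Foxp3+ origin was also compared with a naive origin on the arrays that the main comparison did not use, Treg against Th0, where culture and gate differ as well. Of 11171 measured genes 654 (5.85%) were higher and 582 (5.21%) lower in Treg. Genes higher in both comparisons numbered 70, which is 7.95% of those higher in exFoxp3Th17 and 10.7% of those higher in Treg, and 30 were lower in both (3.50% and 5.15%). Opposite calls were more numerous: 174 were higher in exFoxp3Th17 and lower in Treg (19.8% and 29.9%), and 178 were lower in exFoxp3Th17 and higher in Treg (20.8% and 27.2%). These counts moved with the processing, to 33 higher in both and 106 higher then lower with probe sets averaged per gene, and to 125 higher in both at a floor of 6.05. Among 10321 genes measured in both comparisons 7.73% were higher and 7.81% lower in exFoxp3Th17. Of the 599 Treg-higher genes among them 11.7% were higher and 29.7% lower (median -0.29), and of the 552 Treg-lower genes 31.5% were higher and 5.43% lower (median 0.65).

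The genes that went the same way were led by Itgae, which was 27.8-fold higher in exFoxp3Th17 and at least 31.8-fold higher in Treg. S100a4, a calcium-binding protein of motile and memory cells, had a signal of 608 in exFoxp3Th17, 49.9 in Th17, 127 in Th0 and 1088 in Treg. Igfbp7, Plagl1, Penk, the surface sialoglycoprotein Cd24a, the carboxypeptidase Cpe, the phospholipase Plcb4, the chemokine receptor Cxcr3 and Niban1 followed. Cxcr3 had 66.1 in exFoxp3Th17, 18.0 in Th17, 16.8 in Th0 and 389 in Treg, so its level was far higher in Treg, whereas Cpe had 526 in exFoxp3Th17, 139 in Th17, 76.6 in Th0 and 467 in Treg. The genes lower in both were led by Myo6, an actin motor, with 24.7 in exFoxp3Th17, 176 in Th17, 1529 in Th0 and 169 in Treg, and included Klrd1, Pik3r5, Acsl6, Igfbp4, Atp8b4, Ccn3, Itga7, Phxr4 and Ckap4. With probe sets averaged per gene Igfbp7, Cpe, Plcb4, Atp8b4 and Ckap4 were no longer called in the main comparison, and without probe sets that can match several transcripts Plagl1 was not called and Ckap4 stood at a log2 ratio of 0.015. In Klrd1 and Ccn3 the highest of the 4 arrays was Th17, and in Myo6 it was Th0.

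Among genes called in opposite directions, the retinol dehydrogenase Adh1 was 12.7-fold higher in exFoxp3Th17 and 13.5-fold lower in Treg, with a signal of 251 in exFoxp3Th17, 19.7 in Th17, 212 in Th0 and 15.6 in Treg. Tdrp (398 in exFoxp3Th17, 39.1 in Th17, 379 in Th0 and 6.07 in Treg), St8sia6, Dzip1, the Rab GTPase-activating gene Tbc1d4, Pik3ip1, Ifit1bl1, Bambi-ps1, Shld1 and Nsg2 had the same form. Plac8 was 78.6-fold lower in exFoxp3Th17 and 25.3-fold higher in Treg, with 14.4 in exFoxp3Th17, 1133 in Th17, 21.6 in Th0 and 547 in Treg, and Tgm2, Enah, Nfil3, Tnfrsf9, Il10, Ier3, Gadd45g, Gpld1 and Eaf2 went likewise. Gadd45g, a growth arrest and stress gene, had 66.3 in exFoxp3Th17, 560.1 in Th17, 22.0 in Th0 and 379.6 in Treg. In each of the genes named in this paragraph exFoxp3Th17 and Th0 lay on one side and Th17 and Treg on the other, which the opposite calls in part fix.

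**Figure D5:**
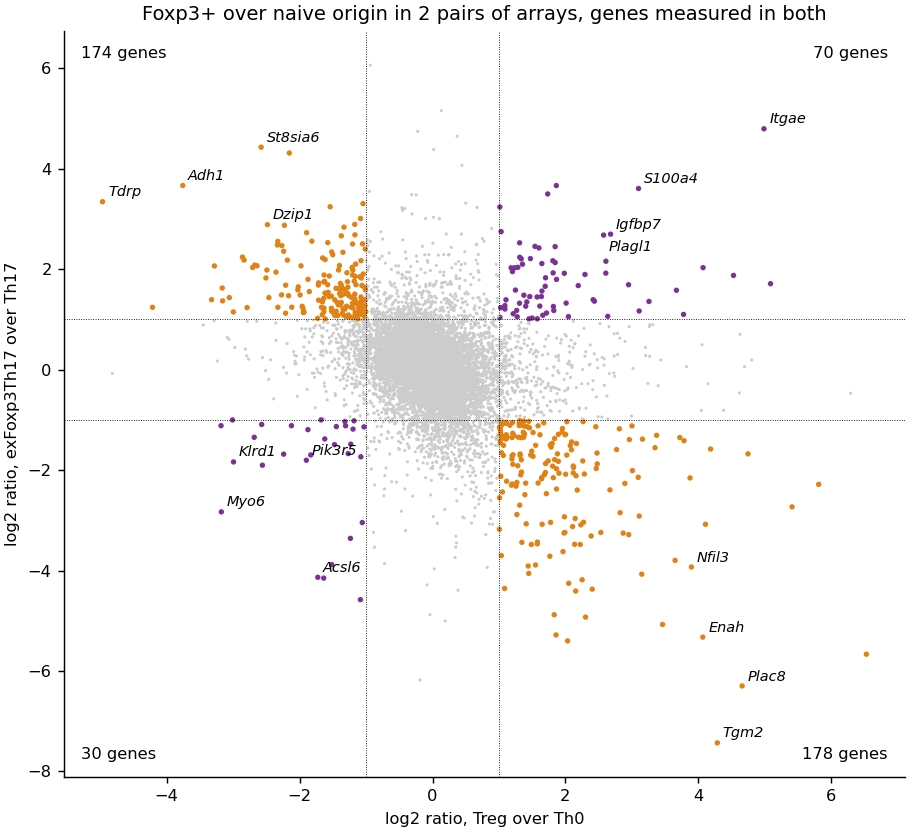
Log2 ratio of Treg over Th0 (horizontal axis) against the log2 ratio of exFoxp3Th17 over Th17 (vertical axis) for genes measured in both, with dotted lines at 2-fold, purple points called the same way and orange points called opposite ways. The upper right corner holds 70 genes and the lower left 30, while the upper left holds 174 and the lower right 178.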

How the data were processed

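Total RNA, 1 µg per sample, of 4 sorted mouse CD4 T cell populations was labelled and hybridised to Affymetrix arrays, 1 array per population, per the labels. The deposited values are linear signal intensities from MAS5, a tool the submitters' processing notes name; no version of it is given in the labels or files used here. The authors' scaling was kept; the mean intensity after trimming the lowest and highest 2% was 100.0 on every array.

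Of 45101 probe sets, 64 were controls, 34945 had 1 gene symbol, 932 had several and 9160 were unnamed; 34741 were named through a RefSeq gene table (GRCm38.p6) and 204 kept the platform symbol. Each of 18193 genes was read from its brightest probe set over the 4 arrays; 9010 had several. Signals below the floor of 12.1 were set to it before log2, and a difference of 2-fold with the higher signal above the floor was called. Python 3.11.15, pandas 2.3.3 and NumPy 2.4.6 were used, and the calls were first tried on simulated data. The simulated ratios were less spread than those of these arrays, so that trial checks the code and not the accuracy of calls near 2-fold. Promoter windows and gene starts are RefSeq's.

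The comparison, the 42 gene lists and the genes named were chosen with earlier results of these data known. The lists overlap, with 687 entries for 631 genes that have a probe set. Named genes were Foxp3, Il17a and sex-linked genes; up to 15 per direction with the largest ratio among genes with at least 2 probe sets at 4 times the floor that all differed by 2-fold; up to 6 called members per list with the largest ratios, and other members as values; and up to 10 per direction called in both comparisons of origin. Names outside this rule were chosen after their values were seen. Alternatives were the floor, a pseudocount, the scaling between arrays and the choice of probe sets. With 1 array per group no test was run. Genes without a probe set of their own were not analysed here.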

Additional observations from a re-analysis of the deposited data

Results flagged for a closer look

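Genes called in opposite directions in the comparisons of origin numbered 174 (higher in exFoxp3Th17 than Th17, lower in Treg than Th0) and 178 (lower, then higher). The difference between the comparisons was not tested, since each has 1 array per group.

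Probe sets without a gene name entered no gene comparison, and 248 of 3084 measured were higher and 129 lower in exFoxp3Th17, so 12.2% were called. Probe set 1446431_at read 121 against 15.5, and 1424704_at read 309.8 against 54.6. In the other direction 1426438_at (2.50 against 637) and 1452077_at (2.38 against 453) lay below the floor in exFoxp3Th17. They read 577 and 441 in Th0 and 581 and 399 in Treg. This is the pattern of the Y-linked genes Eif2s3y, Kdm5d and Uty, so origin and the sex-linked difference cannot be told apart here either.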

How the results depend on the processing

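Each population has 1 array, so its culture, sort and hybridisation cannot be told apart from its origin, and signals near the floor bound what a fold can show. Over 7 alternatives the counts of the main comparison stayed within 1.5 times, between 599 and 1192 higher and between 640 and 1028 lower, with more lower than higher calls under 5 of them (both scalings, a floor of 24.2, the pseudocount and probe sets averaged per gene). Of 882 list values 36 moved, by over 1.5 times for a count or by 0.5 or more for a median log2 ratio. Smaller shifts changed the sign of 3 list medians close to 0, those of NF-kB factors (0.04, down to -0.13), costimulatory receptors (-0.02, up to 0.03) and Th17 effector and surface genes (0.06, down to -0.002). Of the gene values, 715 of 728 stayed on the same side of 2-fold and 12 lost the call. Ckap4 reversed, at a log2 ratio of 0.015 without the probe sets that can match several transcripts. At a floor of 6.05, 888 genes were lower in Treg than Th0 (582 otherwise) and 125 were higher in both comparisons (70 otherwise). With probe sets averaged per gene 33 were higher in both, 19 lower in both (30 otherwise) and 106 higher then lower (174 otherwise), and 19 were lower in both with the floor as a pseudocount. The cause of these shifts was not tested. No paired analysis was possible because each group has 1 array.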

Other observations

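Some smaller gene groups held 1 to 3 calls each, beside 8.06% higher and 7.84% lower over all measured genes, and their members are given as values. Of 10 measured MAP kinase feedback genes 1 was higher and 2 lower (median -0.48): the phosphatase Dusp14 was 3.00-fold higher (101 against 33.7), and Dusp5 (3.34-fold) and Spred1 (3.25-fold) were lower, or 1 of them with probe sets averaged per gene. Dusp4, which inactivates ERK, had a signal of 1001 in exFoxp3Th17, 615 in Th17, 36.2 in Th0 and 896 in Treg, so both Th17 arrays and Treg lay far above Th0. In the BCL2 family list, which also holds the signalling adaptor Bcl10, 1 of 12 was higher, the death gene Bmf (2.21-fold), and 2 were lower, Bcl2 and the death gene Bcl2l11 (2.68-fold), while Mcl1 (2956 against 2813) was within 2-fold. Of 8 GIMAP genes, small GTPases of resting lymphocytes, 7 were within 2-fold and Gimap7 was 4.45-fold lower, although no other probe set of it passed 2-fold.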
